A study of Mus musculus with 8 samples.

Results

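*Mdm2*, *Ccng1*, *Zmat3* and *Phlda3* are established transcriptional targets of p53, grouped here as genes that feed back on p53 or restrain growth and survival. p53 is a transcription factor that is stabilised by DNA damage and binds a pair of decamer half-sites in its target genes. *Mdm2* encodes the E3 ubiquitin ligase that marks p53 for degradation, so that p53 raises its own inhibitor. *Ccng1* encodes cyclin G1, which recruits the phosphatase PP2A to MDM2. *Zmat3* encodes a zinc finger protein that binds RNA and acts on transcript stability and splicing. *Phlda3* encodes a protein made of little more than a pleckstrin homology domain, which competes with AKT for membrane phosphoinositides and so dampens AKT survival signalling. In the lung, p53 activity in alveolar type II (AT2) cells, the surfactant-producing stem cells of the alveolus, is part of the response to epithelial injury.

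The 4 genes were taken by name from the authors' table of genes next to regions with more p53 binding after bleomycin (BLM, a drug that breaks DNA), which holds 1425 genes and 915 regions. All 4 were in it, with 6 regions in all. p53 chromatin immunoprecipitation with sequencing (ChIP-seq) was done on feeder-free alveolar organoids grown from sorted AT2 cells of wild-type male mice aged 8 to 12 weeks, 2 mice in all, and which libraries share a mouse is not stated. CTRL organoids received the solvent DMSO for 24 h (2 libraries) and BLM organoids received 100 μM bleomycin for 24 h (2 libraries), from culture day 6. All groups were cross-linked with formaldehyde and DSG and precipitated with a rabbit monoclonal antibody to p53. The 4 input libraries had no peak list and were not used here. Whether they served as the control when the peaks were called is not stated. Peak lists hold no expression, so the AT2 identity of the organoids could not be checked against markers here. The share of cells with p53 at a site and the amount bound per cell cannot be told apart in such bulk libraries.

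Peaks had been called library by library. The lists held 50430 and 48743 peaks in CTRL and 39577 and 41451 in BLM, with medians of fold enrichment over local background between 6.59 and 7.37. Read counts are not in these lists, so the depth of the libraries is unknown. Between conditions, the median BLM minus CTRL difference in log2 fold enrichment over all regions called in the 4 libraries was -0.37. Over these same regions, the library medians of log2 fold enrichment differed by -0.40 between the conditions (BLM minus CTRL). The fit below centres each library on its median over them, so its differences are relative to that shift.

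The transcription start site (TSS) used for each gene is the one implied by the middle of its regions and their signed distances, on GRCm39: chromosome 10 position 117546664 for *Mdm2*, chromosome 11 position 40646139 for *Ccng1*, chromosome 3 position 32419828 for *Zmat3* and chromosome 1 position 135693858 for *Phlda3*. *Phlda3* lies on the plus strand and the other 3 genes on the minus strand. The 2 regions of *Mdm2*, and the 2 of *Phlda3*, implied the same TSS to the base. Each region was 400 bp long in the authors' list. No exon annotation of GRCm39 was used, so regions are placed by distance from the TSS and not as exonic or intronic.

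Promoter sequences, from 250 bases before to 50 after the start site of RefSeq on GRCm38.p6, were found for 3 of the 4 genes, and were searched for the p53 consensus. A half-site is a decamer with C and G fixed in its core, and it is its own reverse complement, so 1 strand covers both. A pair of half-sites with 0 to 13 bases between them and at most 3 mismatches in 20 was present in 1 of these 3 windows, that of *Ccng1*, and in 15.6% of all 32851 windows. The *Ccng1* pair had no spacer and 1 mismatch, and its second half-site was an exact match. With no spacer and at most 3 mismatches the share of all windows was 1.38%, and with at most 1 mismatch, a limit chosen after this match had been seen, it was 0.0670%. The 250 bases upstream of the *Ccng1* start site are shown because, in every library, the peak over the TSS of that gene had its summit at a distance that falls within them. They lie on GRCm38.p6 at chr11:40755287-40755536, minus strand, and capitals mark the pair, 195 to 176 bases before the start site.
Ccng1: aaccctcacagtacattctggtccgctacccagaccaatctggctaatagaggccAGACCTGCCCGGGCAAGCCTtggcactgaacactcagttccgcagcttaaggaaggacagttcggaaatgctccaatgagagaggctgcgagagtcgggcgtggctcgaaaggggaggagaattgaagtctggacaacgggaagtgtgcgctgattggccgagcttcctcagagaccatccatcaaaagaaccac

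*Mdm2* had an exact half-site in its window, as had 8.36% of all windows, but no pair. The 30 bases around it, on GRCm38.p6 at chr10:117710925-117710954, minus strand, are shown for comparison with *Ccng1*, with the half-site in capitals.
Mdm2: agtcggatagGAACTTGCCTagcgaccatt
The *Phlda3* window held neither a pair nor an exact half-site, and its only CATG, a frequent core of p53 half-sites, ended 1 base before the window did, so that the decamer could not be read to its end. The last 30 bases of the window, on GRCm38.p6 at chr1:135766105-135766134, plus strand, are shown because p53 summits lay close by, with CATG in capitals.
Phlda3: gcggcgcaggaggcgagcggtggaaCATGt
CATG was present in 61.1% of all windows. These matches describe letters in a window. The *Mdm2* regions at -6993 and +652 bp and the *Phlda3* region at -6240 bp lay outside these windows, and no window was found for *Zmat3*. The sequences under the p53 summits of those regions were therefore not searched. The *Ccng1* start site of RefSeq lies 23 bp inside the outer end of the gene, and the TSS of the authors' table comes from another annotation, so the motif and the summits should not be lined up to the base.

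At the *Mdm2* locus, the strongest p53 peak lay 7 kb upstream of the TSS. It was among the strongest in the genome also in CTRL organoids, which received solvent without bleomycin. At the region 6993 bp upstream (GRCm39, chr10:117553457-117553856), fold enrichment was 45.5 and 47.9 in CTRL and 85.1 and 88.9 in BLM. The groups did not overlap, and the ratio of their means was 1.86. In the lists ranked by fold, this peak stood at rank 18 and 15 in CTRL and at rank 11 and 10 in BLM, so it stood near the top of the list in both conditions. Its summits lay between 7024 and 6986 bp upstream, and the 2 BLM summits were 1 bp apart. The peak was 584 and 433 bp wide in CTRL and 844 and 1618 bp in BLM. The authors' table assigned this region also to *Slc35e3*, a gene of a nucleotide sugar transporter family, at 28614 bp downstream of its TSS.

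The other *Mdm2* region lay downstream of the TSS, at +652 bp (chr10:117545812-117546211). The p53-responsive promoter of *Mdm2* is known to lie in the first intron, and whether this region coincides with it was not tested. Over the region, fold enrichment was 6.18 and 8.25 in CTRL and 20.0 and 21.4 in BLM. The CTRL peaks stood near or below the middle of their lists by fold, at percentiles 36.19 and 58.79, whereas the BLM peaks stood at 98.53 and 98.81. The shape differed too. Wider BLM peaks were not particular to this locus. Over the enriched regions with a peak in all 4 libraries, median peak width was 389 and 355 bp in CTRL and 626 and 643.5 bp in BLM. In each CTRL library 3 separate peaks lay within the span of the BLM peaks, with summits at +1081, +574 and +9 bp in replicate 1 and at +1148, +665 and +37 bp in replicate 2. In each BLM library a single peak spanned them, 1777 and 1646 bp wide, with its summit at +697 and +657 bp. The highest of the 3 CTRL peaks was the one farthest downstream in replicate 1 (14.4) and the one at the TSS in replicate 2 (13.7), and in neither library the one over the region.

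*Ccng1* had the simplest locus. Its region, 155 bp upstream of the TSS (chr11:40646094-40646493), had a single peak in each library, with fold enrichment of 17.0 and 18.1 in CTRL and 45.3 and 52.4 in BLM. The 4 summits fell within 8 bp of each other, between 159 and 151 bp upstream, a distance that falls in the stretch printed above. Peak width was 658 and 707 bp in CTRL and 911 and 1124 bp in BLM. By fold, the peak stood at percentiles 92.88 and 94.56 of the CTRL lists (rank 3593 and 2652) and at 99.81 and 99.85 of the shorter BLM lists (rank 78 and 62).

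*Zmat3* had a single region, and the highest value in any library at the 6 regions was its value in BLM replicate 2. At its region 1335 bp downstream of the TSS (chr3:32418293-32418692), fold enrichment was 22.4 and 22.1 in CTRL and 70.7 and 99.7 in BLM. The BLM libraries differed more from each other here than at any other of the 6 regions (SD 20.6, n = 2), and both stood well above CTRL. BLM replicate 2 placed this peak at rank 3 of 41451 and BLM replicate 1 at rank 30 of 39577, and both CTRL libraries placed it at percentile 97.86. The summit was at +1341 bp in CTRL replicate 1 and in both BLM libraries, and at +1346 bp in CTRL replicate 2. In CTRL a separate weaker peak lay at the TSS, with fold enrichment of 9.99 and 7.29. In BLM a single peak, 2170 and 2143 bp wide, covered both places. The same region was assigned to *Kcnmb2*, a potassium channel subunit gene, at 461640 bp from its TSS.

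*Phlda3* had a pair of regions with p53 peaks, one upstream and one at the TSS. At the region 6240 bp upstream (chr1:135687418-135687817), fold enrichment was 10.8 and 11.7 in CTRL and 66.9 and 60.7 in BLM. The ratio of means, 5.69, was the largest of the 6 regions. It ranked 17 among the 280 enriched regions with a peak in all 4 libraries, where the median ratio was 2.41. The other regions ranked 54 (*Phlda3* +20 bp), 68 (*Zmat3*), 111 (*Mdm2* +652 bp), 113 (*Ccng1*) and 182 (*Mdm2* -6993 bp). The ratio of the last, 1.86, was below that median. In CTRL the peak 6240 bp upstream of *Phlda3* was narrower than the median peak of its list, at 206 and 220 bp against 330.0 and 322 bp. In BLM it was wider, at 585 and 638 bp against 281 and 279 bp. The authors' table gave this region also to *Csrp1*, a LIM domain protein gene, at 39818 bp.

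At the *Phlda3* TSS (region at +20 bp, chr1:135693678-135694077), fold enrichment was 19.8 and 13.1 in CTRL and 61.5 and 74.1 in BLM. The CTRL libraries were less alike here than at the other 5 regions (SD 4.77, n = 2). The summits lay between +4 and +19 bp in the 4 libraries. Peak width was 577 and 425 bp in CTRL and 1212 and 931 bp in BLM.

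**Figure D1:**
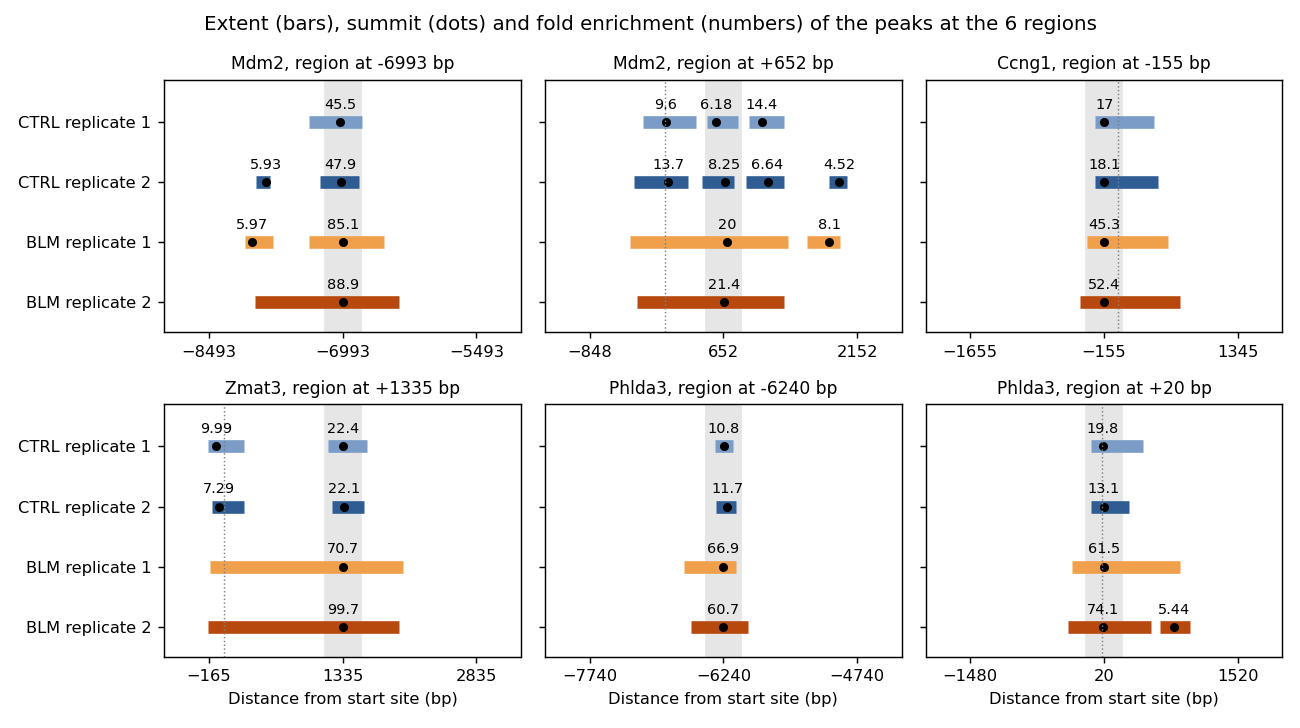
Peaks of each library (rows) around the 6 regions, with distance from the TSS in bp on the x axis. Bars span the peaks, dots mark summits, numbers give fold enrichment, grey bands the 400 bp regions and dotted lines the TSS. At Mdm2 +652 and Zmat3 +1335 the separate CTRL peaks are covered by 1 wide peak in each BLM library.

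Set side by side, the levels in BLM ran from *Mdm2* at -6993 bp (mean fold enrichment 87.0 ± 2.70, SD, n = 2) through *Zmat3* (85.2 ± 20.6), *Phlda3* at +20 bp (67.8 ± 8.90), *Phlda3* at -6240 bp (63.8 ± 4.34) and *Ccng1* (48.8 ± 5.03) to *Mdm2* at +652 bp (20.7 ± 0.950). Each of the first 4 overlapped its neighbour in this order, while *Ccng1* lay below all of them and *Mdm2* at +652 bp below *Ccng1*, without overlap. In CTRL the order was *Mdm2* at -6993 bp (46.7 ± 1.70), *Zmat3* (22.3 ± 0.202), *Ccng1* (17.5 ± 0.770), *Phlda3* at +20 bp (16.4 ± 4.77), *Phlda3* at -6240 bp (11.2 ± 0.648) and *Mdm2* at +652 bp (7.22 ± 1.46). There, the values of *Ccng1* and *Phlda3* at +20 bp overlapped and the other neighbours did not. Between the 2 orders, *Ccng1* changed place the most, from above the upstream *Phlda3* region in CTRL to below both *Phlda3* regions in BLM.

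**Figure D2:**
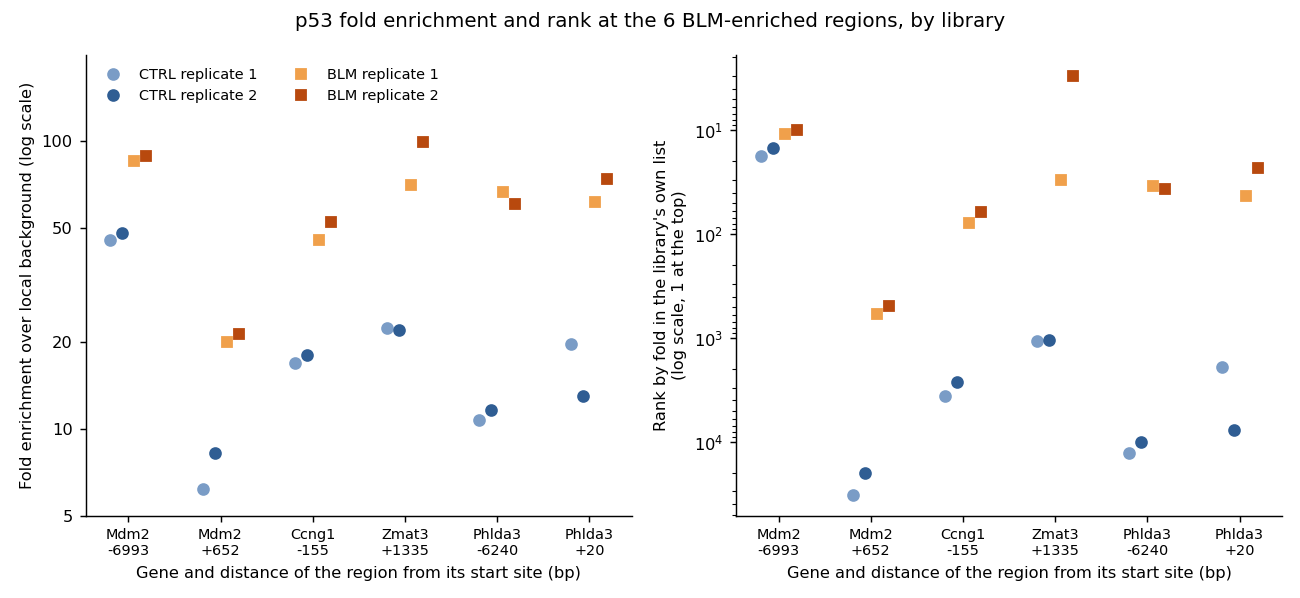
Fold enrichment over local background (left, log scale) and rank by fold within the library's own list (right, log scale, rank 1 at the top) at the 6 regions, 1 point per library. BLM squares stand above CTRL circles at each region, and the ranks of Mdm2 -6993 lie between 10 and 18 in all 4 libraries.

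All 6 regions had a peak in all 4 libraries, so a p53 ChIP peak was called at each of them in CTRL as well. Of the 915 enriched regions, 30.6% had a peak in all 4. All 6 had both BLM folds above both CTRL folds, which held for 5.87% of the 26316 joined regions called in the 4 libraries. The authors chose the enriched regions on these same libraries, so the direction was fixed by that choice and nothing is read from these counts. With 2 libraries a group, the smallest two-sided p of an exact permutation test is 0.333.

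limma was therefore fitted to log2 fold enrichment over all 26316 regions, each library centred on its median, and it called 199 higher (0.756%) and 14 lower (0.0532%) in BLM at a Benjamini-Hochberg adjusted p under 0.05. Without centring the split was 159 higher and 631 lower. Of the 6 regions of these genes, 5 passed. The difference in log2 fold enrichment was 2.91 (SE 0.276, adjusted p = 2.59e-09) at *Phlda3* -6240 bp and 2.47 (SE 0.269, adjusted p = 4.46e-08) at *Phlda3* +20 bp. It was 2.32 (SE 0.246, adjusted p = 2.90e-08) at *Zmat3*, 1.88 (SE 0.269, adjusted p = 1.04e-05) at *Ccng1* and 1.30 (SE 0.215, adjusted p = 1.36e-04) at *Mdm2* -6993 bp. These p-values set each difference against a spread between libraries that limma estimates in part from all 26316 regions. They do not measure the spread at the region alone and are no independent evidence of direction.

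Both *Mdm2* values depended on how they were computed. At *Mdm2* +652 bp the difference was 0.96 (SE 0.310, adjusted p = 0.207), because the joined region takes the highest of the 3 CTRL peaks. With the peak over the 400 bp region itself, an alternative chosen after the peaks had been seen, it was 1.93 (SE 0.343, adjusted p = 4.16e-04). At *Mdm2* -6993 bp, quantile normalization, which gives every library the same distribution of folds, reduced the difference to 0.11 (adjusted p = 0.936). Its rank near the top of every list leaves little room for a difference on that scale.

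**Figure D3:**
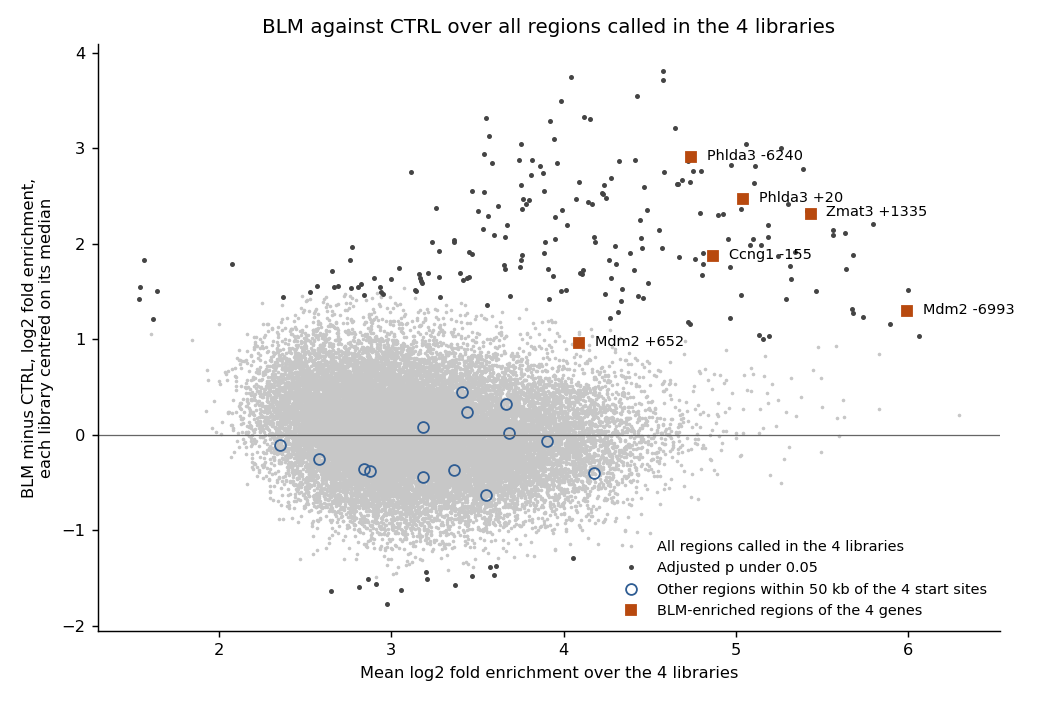
BLM minus CTRL difference in log2 fold enrichment, each library centred on its median (y axis), against the mean log2 fold enrichment over the 4 libraries (x axis), for 26316 joined regions. Orange squares are the 6 regions of the 4 genes, open circles the other 14 regions within 50 kb of their start sites, and dark dots regions with a limma adjusted p under 0.05. The squares lie between 0.96 and 2.91, the open circles between -0.64 and 0.44.

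Other peaks of the 4 loci were then listed. Within 50 kb of the 4 TSS there were 37 and 47 peaks in CTRL and 31 and 33 in BLM, covering 16153 and 16760 bp in CTRL and 17019 and 18279 bp in BLM. *Phlda3* had the most (16, 18, 11 and 14 in CTRL replicates 1 and 2 and BLM replicates 1 and 2), most of them upstream. *Ccng1* had the fewest (2, 3, 2 and 3). Joined across libraries, these peaks made 50 regions, of which 20 were called in all 4 libraries. Apart from the 6 that hold the enriched regions, none of the other 14 (4 at *Mdm2*, 4 at *Zmat3*, 6 at *Phlda3* and 0 at *Ccng1*) had both BLM folds above both CTRL folds. In 10 of the 14 both BLM folds were below both CTRL folds, against 47.2% of all regions called in the 4 libraries, and in 4 the groups overlapped. limma called 0 of the 14 in either direction (lowest adjusted p = 0.568), with 0 at an unadjusted p under 0.05. Over all 26316 regions it called 0.756% higher and 0.0532% lower, and 2606 had an unadjusted p under 0.05. With only 14 regions, nothing is read from these counts of 0. The median difference in log2 fold enrichment of the 14 was -0.18, with a range from -0.64 to 0.44. That none of them was higher is in part fixed, since such regions could have entered the authors' list.

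At *Mdm2* these other regions lay 18.7, 20.6 and 35.7 kb upstream and 47.4 kb downstream. The one 18.7 kb upstream had fold enrichment of 18.8 and 16.4 in CTRL and 11.5 and 13.9 in BLM. At *Zmat3* a group of 4 lay between 31.7 and 47.0 kb upstream. Its strongest, 43.5 kb upstream, had 20.3 and 28.1 in CTRL and 19.4 and 9.68 in BLM, and in CTRL replicate 2 it stood above the *Zmat3* region itself. In the other 15 of 16 combinations of gene and library the strongest peak of the window was one over an enriched region. The lead of that peak over the strongest other peak was 1.02 to 1.65 times in CTRL and 5.47 to 7.54 times in BLM at *Phlda3*. At *Mdm2* it was 2.41 and 2.92 times in CTRL and 6.68 and 6.38 times in BLM. At *Ccng1* it was 3.26 and 2.75 times in CTRL and 9.06 and 5.31 times in BLM. The *Zmat3* region stood at 1.10 and 0.787 times the strongest other peak in CTRL and at 3.6 and 9.4 times in BLM. A larger lead in BLM is in part fixed, since the authors chose the enriched regions on these same libraries.

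A single joined region in the 4 windows was called in both BLM libraries and neither CTRL library, 21.1 kb downstream of the *Ccng1* TSS, with fold enrichment of 4.995 and 9.86. Its edge lay 6 bp from another joined region, which was called in both CTRL libraries (5.21 and 6.56) and in BLM replicate 2 (4.23), so CTRL peaks were present next to it. Such regions made up 2.03% of all 63268 joined regions. The count was 3 without BLM replicate 1 and 4 without BLM replicate 2. The opposite pattern, both CTRL and neither BLM, was found 5 times in the windows (3 at *Phlda3*, 1 at *Mdm2* and 1 at *Zmat3*) and in 8.4% of all joined regions. It was 12 without CTRL replicate 1 and 10 without BLM replicate 2.

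**Figure D4:**
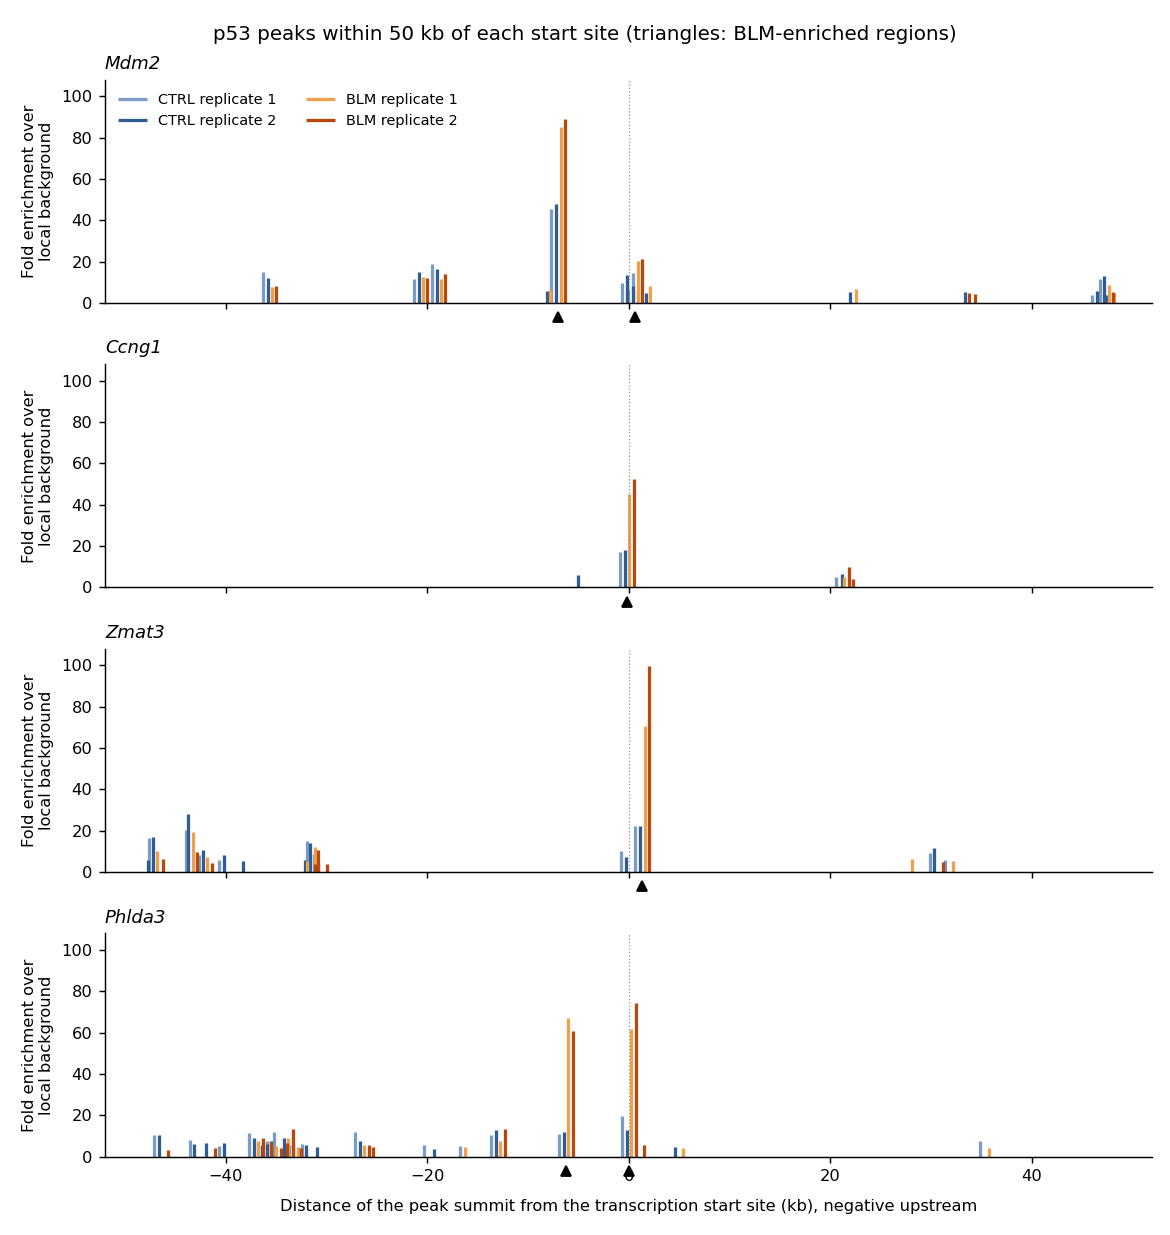
Fold enrichment over local background (y axis) of every peak within 50 kb of the 4 start sites, by distance of its summit from the TSS in kb (x axis, negative upstream). Bars of the 4 libraries are set side by side, up to 0.7 kb from their true place, so that they can be told apart, and triangles mark the enriched regions. BLM bars rise above 40 at 5 of the 6 enriched regions and stay under 20 elsewhere, apart from Mdm2 at +652 bp, where they reach 20.0 and 21.4.

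The 50 kb limit cut through no peak cluster at *Ccng1* and *Zmat3*. At *Ccng1* the outermost peak inside lay 21.5 kb or less from the TSS and the next one outside at least 60.5 kb away. At *Zmat3* the next peak outside lay 145 kb upstream in each library, with fold enrichment from 10.4 to 14.95. At *Phlda3* a peak lay just outside in every library, 52.6 to 52.7 kb downstream, with 10.9 and 8.58 in CTRL and 7.70 and 5.59 in BLM. At *Mdm2* the outermost peak inside, 47.4 to 47.9 kb downstream, had a fold enrichment of 3.65 to 11.6, and the next one outside lay 57.4 to 60.7 kb downstream.

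The 4 genes were also set beside other genes of the p53 pathway, in lists chosen with earlier results of these data known. In the table as a whole, 185 of 1425 genes (12.98%) had their nearest region within 5 kb of the TSS. How many genes could have entered the table was not counted, so the shares of the lists found in it are given as counts alone. Of 12 regulators of p53, 5 were in the authors' table and 3 had their nearest region within 5 kb of the TSS, namely *Ccng1*, *Mdm2* and *Trp53inp1*. *Trp53inp1*, which encodes a nuclear protein that promotes p53 phosphorylation, had a region at -172 bp with fold enrichment of 13.3 and 13.6 in CTRL and 30.1 and 37.5 in BLM. *Mdm4*, the partner of *Mdm2*, fell just outside 5 kb, at +5045 bp, with a peak of 6.95 in CTRL replicate 1, none in CTRL replicate 2, and 38.6 and 40.5 in BLM. The nearest region of *Siah1a*, an E3 ligase gene, lay 137400 bp upstream. *Ppm1d*, *Ccng2*, *Rchy1*, *Cop1*, *Siah1b*, *Trp53* and *Trp73* were not in the table.

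Of 9 genes that restrain growth or survival signalling, 4 were in the table and 3 lay within 5 kb. *Phlda3* stood first by mean percentile in the BLM lists (99.92). *Sesn2*, which restrains mTORC1, followed with a region at +752 bp and fold enrichment of 6.0 and 5.47 in CTRL and 20.7 and 13.04 in BLM. *Ddit4*, another restraint on mTORC1, had no CTRL peak at its region and BLM values of 10.4 and 9.29. So among these 3 genes only *Phlda3* and *Sesn2* had a peak in both CTRL libraries. Of 25 other established p53 targets, 15 were in the table, all within 5 kb, and 13 of these had a peak in both CTRL libraries. The 6 with the highest mean BLM percentile were *Psrc1*, *Ephx1*, *Bax*, *Eda2r*, *Plk2* and *Ckap2*, with BLM mean fold enrichment from 44.1 to 67.9.

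Over the 185 genes of the table with a region within 5 kb, the median BLM percentile was 94.74, and 94 of them had a peak in both CTRL libraries. By mean BLM fold of the nearest region, *Zmat3* ranked 1 of these 185 genes, *Phlda3* 4, *Ccng1* 13 and *Mdm2* 66. In BLM replicate 1 alone the ranks were 3, 7, 18 and 76, and in BLM replicate 2 alone 1, 3, 15 and 63, so the first place of *Zmat3* rested on replicate 2. The upstream region of *Mdm2*, which was not its nearest, would have ranked above that of *Zmat3*, at 87.0 against 85.2, a gap within the spread of the *Zmat3* values.

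The genes most like each member were sought among 94 genes, with 82 regions, whose nearest region lay within 5 kb and had a peak in all 4 libraries, by Euclidean distance of log2 fold enrichment over the 4 libraries. Nearest to *Phlda3* were *9030617O03Rik* (distance 0.386) and *Ephx1* (0.475), the latter encoding microsomal epoxide hydrolase. *Ccng1* was closest to *Bahcc1* (0.474) and to *Sp1* (0.475), a gene for a transcription factor of GC boxes, with fold enrichment at *Sp1* of 20.4 and 18.8 in CTRL and 57.0 and 60.5 in BLM. *Zmat3* had no neighbour as close. *Klhdc4* (0.718), with 26.2 and 25.9 in CTRL and 52.5 and 71.6 in BLM, and the kinase gene *Dyrk3* (0.752) came next to it. The +652 bp region of *Mdm2* was nearest to that of *Grhl3* (0.487), which encodes an epithelial transcription factor, and to that of *Fam198b* (0.621).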

How the data were processed

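p53 ChIP-seq peak lists of 4 libraries were used. The submitters' processing notes name Trim Galore 0.6.7, Bowtie2 2.5.1, MACS3 3.0.0b1, DiffBind 3.8.4 and edgeR 3.40.2, without roles. The columns that the authors deposited were, per peak, the fold enrichment over local background (a ratio), the −log10 of its p-value and q-value, and a score that is the −log10 q times 10 without its decimals. The enriched regions carry no values. The header of the gene table (GREAT 4.0.4) names mm10, but its coordinates are those of the region list on mm39 (GRCm39); no position was converted. For 140 of 148 genes with 2 or more regions and a known strand, the implied TSS agreed within 10 bp. The strand of *Zmat3* was inferred as minus from the offset between builds at neighbouring genes.

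Peaks whose middle lay within 50 kb of a TSS were listed. Peaks sharing at least 1 bp were joined across libraries, keeping the highest peak per library. limma 3.58.1 (R 4.3.3) was fitted with a trend and no replicate block, with adjustment over all 26316 regions. Python 3.11.15 with pandas 2.3.3 was used for the rest. Percentiles rank peaks by fold in their own list, with 100 as the highest. The code was tested on simulated data.

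The members, lists and tests were chosen with earlier results of these data known. Named genes were the members, genes sharing a region with them, the 2 genes nearest in profile to each member, and up to 6 genes per list with the highest BLM percentile. Beside these, a gene first listed under growth and survival restraint was left out of its list and is not reported here. *Mdm4*, *Siah1a* and the regulators of p53 missing from the table were named after their values had been seen. Alternatives were other normalizations, a replicate block, peaks with −log10 q of at least 5, joining at 50% of the shorter peak, equal numbers of peaks (39577 per list), ranking by −log10 q, windows of 10 and 100 kb, stricter motif limits and each library left out.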

Additional observations from a re-analysis of the deposited data

How the results depend on the processing

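Over the alternatives run, no difference at the 6 regions changed direction. The authors' choice of these regions on the same libraries had fixed that direction, so nothing is read from its stability. Of 130 alternative values, 109 stayed on the same side of their threshold or near the main value. The 5 limma calls held under each alternative except *Mdm2* -6993 bp under quantile normalization (0.11), and *Mdm2* +652 bp passed only with the peak over the region itself (1.93). The count of regions called lower in BLM, 14, was 631 without centring, 22 with quantile normalization and 40 with the replicate block, and ranged from 2 (without CTRL replicate 2) to 95 (without BLM replicate 2), with 5 without CTRL replicate 1 and 78 without BLM replicate 1. In these fits a group of 1 library is assumed to vary like the other. The replicate block raised the count called higher from 199 to 261 and changed no call at the 6 regions. With 2 pairs the numbers are not known to pair the libraries: the correlation of same-numbered deviations over regions was 0.0072. With −log10 q of at least 5 the mean BLM percentile was 99.79 at *Ccng1* and 98.38 at *Mdm2* +652 bp, and ranked by −log10 q the latter was 98.93. In windows of 10 kb the mean count of peaks was 11 per CTRL and 8 per BLM library, and 0 regions were called in both libraries of a condition and neither of the other, in either direction. Regions called in both CTRL and neither BLM library numbered 8 with −log10 q of at least 5. Leaving out 1 library gave 1 to 4 regions called in every remaining BLM and no remaining CTRL library, and 5 to 12 of the opposite kind. Fold enrichment without counts gives no depth, so weak peaks missing from a list cannot be told apart from peaks just under its threshold. The cause of these shifts was not tested.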
